A study of Drosophila melanogaster with 2 samples.

Results

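The histone genes His2Av, His3.3A, His3.3B and His4r of Drosophila melanogaster were examined for peaks of tagged Pleiohomeotic (Pho). They are variant and replacement histone genes that lie outside the main histone repeat, 4 of 13945 protein-coding genes on the 6 main chromosome arms. They were taken by name, and an entry of a peak list was given to a gene when its summit lay within the gene or 2 kb either side on the dm6 build. Chromatin immunoprecipitation with sequencing was done on whole embryos, both sexes pooled, from a transgenic line that expresses Pho, a DNA-binding protein of the Polycomb group, with a C-terminal green fluorescent protein (GFP), and the antibody was against GFP. Embryos were 0 to 24 h old, so each library averages over all of embryogenesis and all cell types. The 1 group held 2 samples, biological replicates 3 and 4, and no library of untagged embryos was analysed here, so tagged Pho at a site and open chromatin precipitated whatever the tag cannot be told apart.

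Most histones are made only while DNA is replicated, from a large array of repeated genes whose messages end in a stem-loop instead of a poly(A) tail. Variant and replacement histones come from separate genes, are made throughout the cell cycle and are put into chromatin outside replication. His2Av encodes the only H2A variant of the fly, which carries out the roles that H2A.Z and H2A.X have in mammals, in transcription and in the response to DNA breaks. His3.3A and His3.3B encode the same H3.3 protein, which replaces H3 in transcribed chromatin, and His4r encodes the same H4 protein as the repeat.

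The sequences under these peaks are shown first because the genes differ in what their summits hold. They are given 5′ to 3′ on the plus strand of dm6 from RefSeq release 6, and capitals mark matches to the motifs searched. These were GCCAT (the core of the Pho site), TATCGATA and CGATAG (the site of the factor DREF and a word that overlaps it), GGTCACACT (promoter motif 1, the site of M1BP), TATAAA and GAGAG (the GAGA factor), on both strands. ATCGAT, the middle of the DREF site, was added after the sequence at His2Av was seen. TATCGATA and ATCGAT overlap wherever the longer word occurs, and CGATAG can share bases with both. Stretches inside untranslated regions were limited to 30 bases around a match.
His2Av, intron of the neighbour ball that holds the summit (chr3R:26866656-26866775): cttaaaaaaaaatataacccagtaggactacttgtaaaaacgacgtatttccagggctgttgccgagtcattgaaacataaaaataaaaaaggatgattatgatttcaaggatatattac
His2Av, edge of the first exon of ball (chr3R:26866763-26866792): aaggatatattaCGATAGacagctctgcaa
His2Av, whole stretch between the starts of ball and His2Av (chr3R:26866808-26866928): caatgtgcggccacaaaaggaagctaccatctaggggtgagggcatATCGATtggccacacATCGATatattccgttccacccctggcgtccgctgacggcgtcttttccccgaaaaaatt
His3.3A, inner transcript start (chr2L:5055129-5055158): tagGGTCACACTgagcagacgcgcgtaaac
His3.3B, summit and 50 bp either side (chrX:9155254-9155354): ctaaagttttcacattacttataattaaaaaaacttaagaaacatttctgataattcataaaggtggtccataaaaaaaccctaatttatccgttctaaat
His4r, whole stretch between the starts of put and His4r (chr3R:14625704-14625754): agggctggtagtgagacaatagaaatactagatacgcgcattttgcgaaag
His4r, first exon of put (chr3R:14625667-14625696): ggcggCGATAGcgATGGCCGATAGgcgata

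Of the 4 genes, 3 had a summit in the optimal list, the one in which the authors kept peaks that passed a cutoff for reproducibility (irreproducible discovery rate): His2Av, His3.3A and His3.3B, each with 1. His4r had none. Within the same distance, 37.7% of all protein-coding genes had one, and among the 9867 genes no longer than the longest of the 4 (His3.3B, 4147 bp) 31.5% did. With 4 genes the count cannot be told from these shares. The optimal list held 4293 peaks, which were the 4293 strongest entries of the list made from the combined reads (the pooled list), with signal values from 91.9 to 2583 and a median of 145. Both replicates had a summit within 100 bp of 4053 of them (94.4%), so a place in this list did not require a summit that close in each replicate. Replicate entries that overlap a peak with a summit further away were not counted. The signal value is the peak caller's own measure of strength. Its scale differs between lists, so entries were compared between lists by rank, where 1 is the strongest. The files hold no read numbers, so the depth behind a signal value is unknown.

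Taking as many top entries from each replicate alone, replicate 3 had a summit at all 4 genes, where 37.8% of protein-coding genes had one. Replicate 4 had one at 2, His2Av and His3.3B, where 37.1% of genes had one. His2Av and His3.3B thus had an entry that strong in each library, as 32.8% of protein-coding genes did. At His2Av it was the same site, but at His3.3B it was the peak inside the gene in replicate 3 and an entry past the 3′ end in replicate 4. The whole lists, of 30000 entries each, hold peaks and background, and all 4 genes had entries in the pooled list, in replicate 3 and in replicate 4. So did 79.1%, 78.4% and 81.6% of protein-coding genes, so an entry in a whole list is common to most genes. Over the 4 windows together the pooled list held 21 entries, replicate 3 held 18 and replicate 4 held 16.

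**Figure D1:**
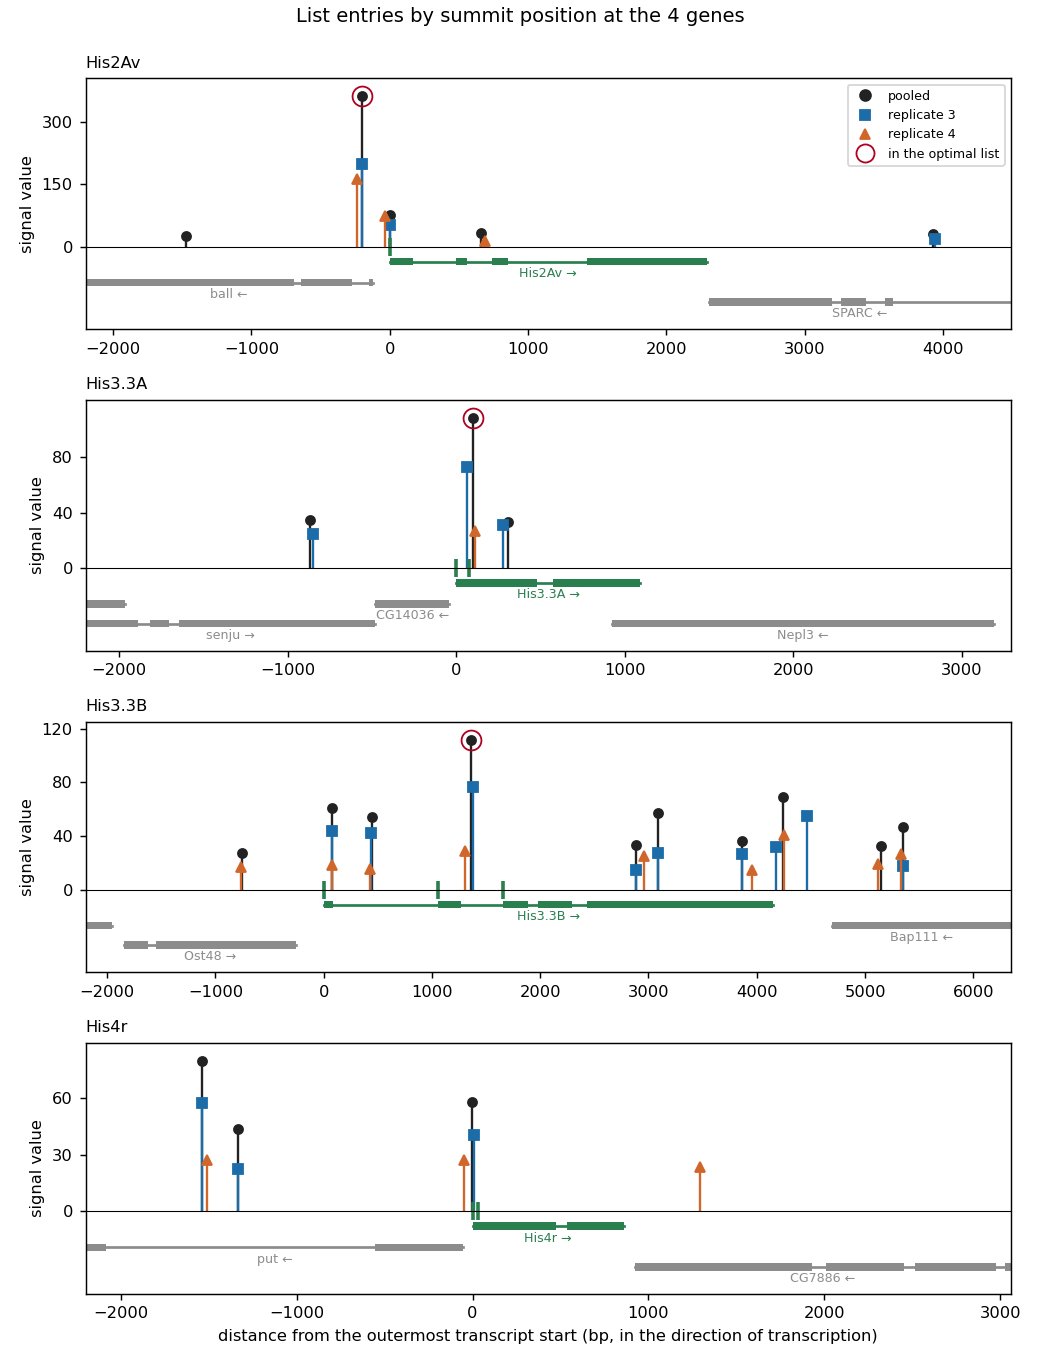
Entries in the window of each gene, by summit position (x axis, bp from the outermost transcript start in the direction of transcription) and signal value (y axis) in the pooled list and in replicates 3 and 4. A ring marks the entry in the optimal list, boxes below are exons of the gene (green) and of its neighbours (grey), arrows give their direction relative to the gene, and green ticks mark transcript starts. The ringed entry lies before the start at His2Av, near the inner start at His3.3A and between 2 starts at His3.3B, and His4r has no ring.

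His2Av (FBgn0001197, chr3R:26866929-26869220, plus strand) had by far the strongest peak of the 4. The optimal peak (chr3R:26866608-26866773) ranked 375 in the pooled list with a signal value of 362. In replicate 3 the entry had a signal value of 198 and ranked 475, and in replicate 4 it had 163 and ranked 299. Each library on its own thus placed it far above the end of the optimal list. Only 5.04% of protein-coding genes had a stronger pooled entry in their windows, 6.38% in replicate 3 and 4.03% in replicate 4. The optimal peak was 166 bp wide, narrower than the 436 bp that the caller gave most optimal peaks. In the replicates the entry had the usual width of each list, 440 bp in replicate 3 and 420 bp in replicate 4.

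The summit (26866727) did not lie in His2Av. It lay 202 bp upstream of the His2Av start, in the first intron of the divergent gene ball, whose outer start was 80 bp away. An inner start of ball is annotated at 26866625, so the summit lay between that start and the outer one. The replicate 4 summit was nearest to the inner start, 67 bp from it. ball encodes a kinase that phosphorylates histone H2A, so a histone variant and a histone kinase begin on either side of a stretch of 121 bp. By position alone the peak belongs to ball, and both genes share the region. The replicate summits lay 35 bp apart, 202 bp upstream of the His2Av start in replicate 3 and 237 bp upstream in replicate 4. Over the 4053 optimal peaks matched in both replicates within 100 bp, the median size of that distance was 23.0 bp.

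A second, weaker entry stood at the His2Av start itself. Its pooled summit fell on the annotated start base, with a signal value of 76.3 and rank 5622, below the optimal list. In replicate 3 it was 1 bp from the start with a signal value of 53.1 and rank 4790. In replicate 4 it was 37 bp upstream with a signal value of 73.7 and rank 1463. This entry was thus inside the top 4293 of replicate 4 and outside those of replicate 3. Its pooled interval overlaps that of the stronger peak, so the signals were not measured on separate DNA. The stronger pooled summit lay 202 bp from it. In replicate 4 both summits lay further upstream, 237 and 37 bp before the start. Weaker entries stood at a similar distance from a stronger one at His3.3A and in the intron of put, near His4r. Whether the entry is a separate peak or was placed by the caller beside the stronger one was not tested.

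None of the motifs lay within 50 bp of the optimal summit at His2Av. CGATAG began 48 bp from it and ran past the window, at the border of the first intron and first exon of ball. It was present within 100 bp of 14.7% of all optimal summits. Between the 2 starts the sequence held ATCGAT at 2 places, 55 and 70 bp from the weaker summit at the His2Av start, and 15.1% of optimal summits had that word within 100 bp. The summit window of 101 bp had 33.7% G and C, close to the median of 36.6% over optimal summits, whereas the window at the His2Av start had 53.5%, more than 93.7% of optimal windows.

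His3.3A (FBgn0014857, chr2L:5055058-5056149, plus strand) had an optimal peak of the lower ranks at its start. The peak (chr2L:5054941-5055376) ranked 3386 in the pooled list with a signal value of 108. In replicate 3 it had 72.9 and ranked 2957, and in replicate 4 it had 26.5 and ranked 8008. Replicate 4 alone would have left it out of a list of 4293. A stronger pooled entry was present at 32.4% of protein-coding genes. The summit (5055159) lay in the 5′ untranslated region, 25 bp past the inner of 2 annotated starts and 101 bp past the outer one. CG14036, a gene of unnamed function, begins divergently only 42 bp from the outer start, and the peak covers both starts.

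The His3.3A peak was the only one of the 3 with a searched motif within 50 bp of its summit. GGTCACACT lay at 5055132 to 5055140 on the plus strand, its first base 2 bp upstream of the inner start and its nearest base 19 bp from the summit. This motif was within 50 bp of 62 of the 4293 optimal summits, or 1.44%. The replicate summits, at 5055124 and 5055170, lay on either side of it, 46 bp apart. G and C made up 47.5% of the window. A weaker entry within the coding sequence was listed in the pooled reads (rank 19264) and in replicate 3 (rank 10373), and another in the coding sequence of senju, upstream, at ranks 17912 and 14455. Neither had a counterpart in replicate 4.

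His3.3B (FBgn0004828, chrX:9152523-9156669, minus strand) had its optimal peak inside the gene, between alternative starts. The peak (chrX:9155086-9155521) ranked 3197 in the pooled list with a signal value of 112, close to that of His3.3A. Replicate 3 gave it 76.6 and rank 2726, and replicate 4 gave it 28.7 and rank 6949. The gene has 3 annotated starts, and the summit (9155304) was 292 bp upstream of the innermost, in introns of the longer transcripts. In replicate 3 the summit was 278 bp upstream of the innermost start. In replicate 4 it was nearest to the middle start (9155613), 253 bp past it. These replicate summits were 70 bp apart, the widest gap of the 3 peaks. No searched motif lay within 50 bp, and TATAAA occurred 84 bp away on the minus strand, as it did within 100 bp of 29.9% of optimal summits. The window was rich in A and T, with 23.8% G and C, and 4.54% of optimal windows had less.

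Both H3.3 genes thus carried a peak of nearly the same pooled rank, and both were weaker in replicate 4 than in replicate 3. The signal in replicate 3 was 2.75 times that in replicate 4 at His3.3A and 2.67 times at His3.3B, against a median of 1.52 over all matched optimal peaks. Among the 182 matched peaks within 100 ranks of His3.3A, 167 had a lower ratio, and among the 175 around His3.3B 164 did. At His2Av the ratio was 1.22, and 26 of the 195 peaks of similar rank had a lower one. Ranks over 4293 in replicate 4 were not rare among such peaks: 56 of the 182 and 54 of the 175 had one, and 15.6% of all matched optimal peaks did. The peaks share these 2 libraries, so the ratios describe the libraries and were not tested.

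**Figure D2:**
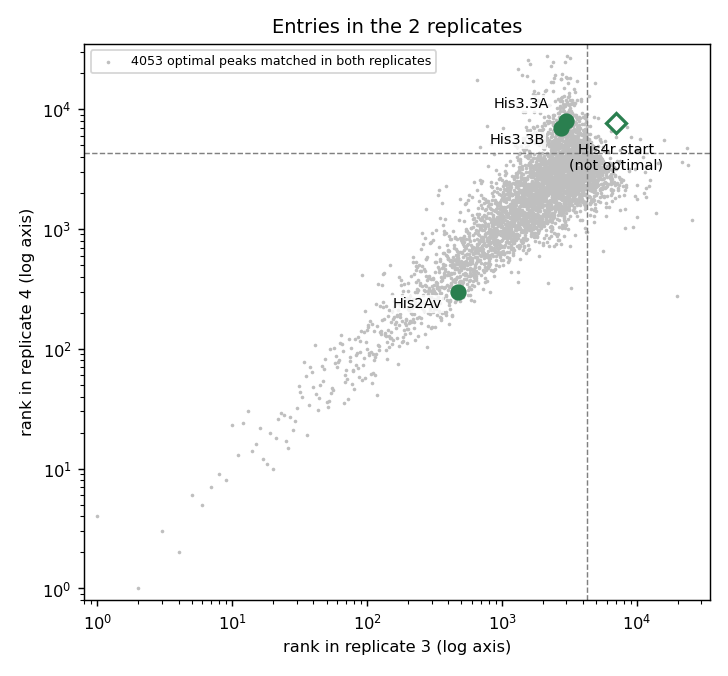
Rank in replicate 3 (x axis, log scale) against rank in replicate 4 (y axis, log scale) for the 4053 optimal peaks matched in both replicates (grey), with His2Av, His3.3A and His3.3B in green and the entry at the His4r start, which is not in the optimal list, as an open diamond. Dashed lines mark rank 4293. His2Av (475 and 299) lies within the cloud of strong peaks, His3.3A and His3.3B lie beyond the line in replicate 4 only, and the His4r start lies beyond it in both.

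His3.3B, the longest of the 4 genes and so the one with the widest window, had the most entries, 10 in the pooled list with its optimal peak included, 9 in replicate 3 and 9 in replicate 4. At its outermost start a pooled summit lay 73 bp inside the first exon, with a signal value of 61.0 and rank 7621. Replicate 3 ranked this entry 6321 (signal value 43.6) and replicate 4 ranked it 16437 (18.2). The strongest entry of replicate 4 in this window was at the other end of the gene. It lay 104 bp past the 3′ end, in the gap of 546 bp to the convergent gene Bap111, which encodes a subunit of the Brahma chromatin remodeller, with a signal value of 41.0 and rank 3796. The pooled summit there lay 92 bp past the end (69.3, rank 6384). Replicate 3 had 2 summits in the gap, 321 bp (55.1, rank 4521) and 36 bp (31.9, rank 9856) past the end. The count for His3.3B in replicate 4 alone thus rested on an entry behind the gene, not on its promoter.

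His4r (FBgn0013981, chr3R:14625755-14626614, plus strand) had no optimal summit, and its 2 leading entries were of like rank in replicate 4. At its start the pooled summit (14625751) lay 4 bp upstream of the outer start, between it and the divergent gene put, which encodes a type II receptor of the TGF-beta family. That entry had a signal value of 58.2, a −log10 q-value of 1.38 and rank 8172, against 3.89, the highest value of that list, for each of the 3 optimal peaks described above. In replicate 3 it had a signal value of 40.7 and rank 6981 and lay 8 bp past the outer start. In replicate 4 it had 27.2 and rank 7642 and lay 47 bp upstream, 5 bp from the start of put. Both libraries therefore listed an entry in the stretch of 51 bp between the genes or 8 bp past the outer His4r start. Neither ranked it within its top 4293. In replicate 3 its −log10 q-value was 2.11, beside 3.91 at each of the 3 optimal peaks. In replicate 4 its −log10 q-value was 1.07, beside 3.67 at His2Av, 1.25 at His3.3B and 0.99 at His3.3A. The pooled contrast with the H3.3 peaks was thus absent in replicate 4.

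A stronger pooled entry in the His4r window belonged by position to put. It lay in an intron of put, 1539 bp upstream of the His4r start, with a pooled signal value of 79.8 and rank 5271. Replicate 3 ranked it 4229 with a signal value of 57.7, just inside the length of the optimal list, and replicate 4 ranked it 7701 with 27.1. The count for His4r in replicate 3 alone rested on this entry. A pooled entry stronger than it was found at 42.0% of protein-coding genes. The window at this summit in the put intron had 21.8% G and C, and 1.98% of optimal windows had less. A weaker pooled entry in put (rank 12494) had TATAAA 19 bp from its summit, as 16.5% of optimal summits did within 50 bp. At the summit between the 2 genes the window had 44.6% G and C, and no searched motif lay within 50 bp. Within 100 bp, on the side of put, CGATAG occurred at 2 places, 61 and 74 bp away, with GCCAT between them on the minus strand, 67 bp away. GCCAT lay within 100 bp of 28.4% of optimal summits.

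**Figure D3:**
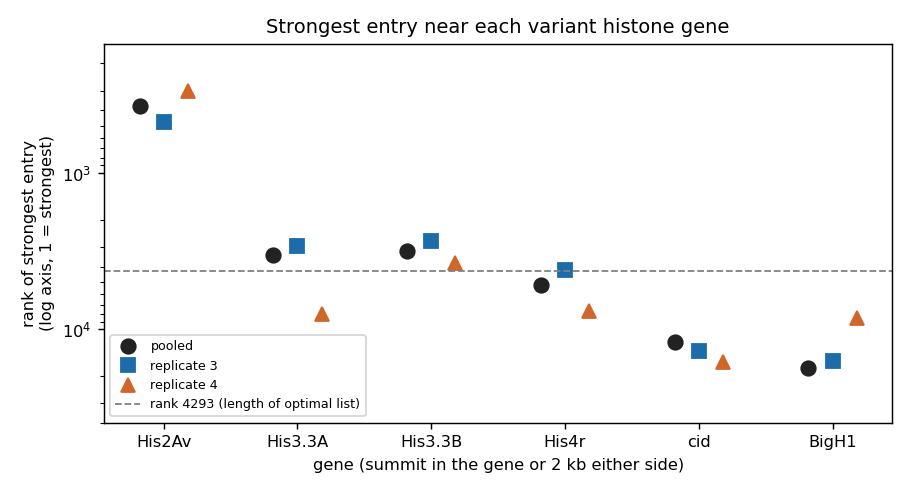
Rank of the strongest entry in each gene's window (y axis, log scale, strongest at the top) in the pooled list, replicate 3 and replicate 4, for the 4 genes and for cid and BigH1. The dashed line marks rank 4293, the length of the optimal list. His2Av lies between 299 and 475 in the 3 lists, His3.3B lies above the line in all 3 (in replicate 4 through the entry past its 3′ end), His3.3A lies above it in the pooled list and replicate 3, His4r lies above it in replicate 3 only, and cid and BigH1 lie below it in all 3.

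By strength the order of the 4 genes was His2Av, His3.3B, His3.3A and His4r in the pooled list and in replicate 3. His2Av and His3.3B also led in replicate 4, where His4r (7642) stood just ahead of His3.3A (8008). His3.3A and His3.3B cannot be placed in order, since their pooled ranks (3386 and 3197) were far closer than the ranks of the same His3.3A peak in the 2 replicates (2957 and 8008). His2Av stood apart from the others in each list, with ranks of 299 to 475, and no strongest entry of another of the 4 genes ranked above 2726. Optimal peaks next in rank had their nearest transcript start at schlank (rank 374, ceramide synthase) and E(var)3-9 (376) beside His2Av, at Best1 (3196, a chloride channel) and RpL6 (3198, a ribosomal protein) beside His3.3B, and at CG42514 (3385) and plx (3387) beside His3.3A. The likeness is that of pooled signal value in 2 libraries, and at RpL6 replicate 3 had no summit within 100 bp.

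**Figure D4:**
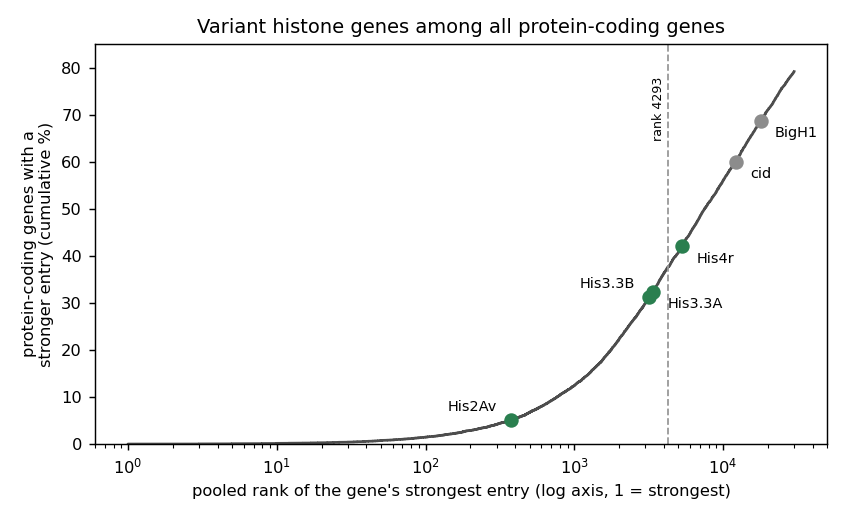
Cumulative share of the 13945 protein-coding genes (y axis, percent) by the pooled rank of the strongest entry in the gene or 2 kb either side (x axis, log scale), with the 4 genes in green and cid and BigH1 in grey. The dashed line marks rank 4293. His2Av stands at 5.04%, His3.3B at 31.2%, His3.3A at 32.4% and His4r at 42.0%, and the curve ends at 79.1%, the share with any entry.

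Other variant histone genes had only weak entries. cid, the H3 variant of centromeres, had its strongest pooled entry at rank 12109 (signal value 44.7), with ranks of 13892 and 16424 in replicates 3 and 4. BigH1, the linker histone of the early embryo, had its strongest at rank 17833 (34.8), and 16160 and 8559 in the replicates. Stronger pooled entries were found at 59.9% and 68.6% of protein-coding genes. The replicative genes of the main repeat had none. The annotation places 111 of them, 23 His1, 20 His2A, 23 His2B, 23 His3 and 22 His4 genes, between 21416953 and 21541681 on 2L. Not 1 entry of the optimal, pooled, replicate 3 or replicate 4 list lay in this span or within 2 kb of it, and the nearest pooled summits were 18238 bp to the left and 15256 bp to the right. How reads from repeated copies were aligned and filtered is not given in the sources used here, so absence of tagged Pho and loss of repeated reads cannot be told apart.

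Genes that work on histones were examined as a list of 29 symbols: chaperones and remodellers that put H3.3 and H2Av into chromatin, subunits of the Tip60 complex, chromatin assembly factors, and factors for the stem-loop messages. Of the 28 matched, 16 (57.1%) had an optimal summit within the gene or 2 kb, beside 37.7% of all protein-coding genes, and 12 did not. Their median length of 2054 bp was near the 2166 bp of all protein-coding genes. The median pooled rank of their strongest entry was 2756, beside 7516 over all genes. Among the top entries of replicate 3 alone 17 had a summit, beside 37.8% of protein-coding genes. Among those of replicate 4 alone 17 also did, beside 37.1%. The 16 genes with an optimal summit were in both counts, and only the remaining gene differed between the replicates. In 6 of the 16, the strongest optimal summit was nearest to a transcript start of the gene itself. The same held for 48.3% of the 5262 protein-coding genes with an optimal summit, so peaks that lay nearer to the start of a neighbour were common in such windows.

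Taking only the strongest optimal summit of each gene, the 6 strongest peaks of this list lay nearer to the start of another gene. Caf1-55 had 2 optimal summits in its window, pont 3, MRG15 2 and yem 2. Their weaker optimal summits are not described here and may lie nearer to the gene's own start. The peak counted for Caf1-55, a histone-binding subunit of CAF-1 and of Polycomb repressive complex PRC2, ranked 10 (signal value 1442) but lay 3961 bp from its start, at mRpS10. Those counted for pont, an ATPase of the Tip60 complex (rank 178, signal value 499), and MRG15, a chromodomain protein (262, 419), were nearest to Nuak and Cp190. yem, a partner of the H3.3 chaperone Hira, had a peak 333 bp upstream of its start (rank 379, signal value 359), nearest to Ctl2. Bap55 (928) and mxc (1291), a scaffold of the body where replicative histone genes are transcribed, had theirs nearest to CG6550 and Larp7. Peaks nearest to the gene's own start were those of Slbp, which binds the histone stem-loop (rank 1354, signal value 189, 117 bp upstream), and E(Pc) (rank 1519, 1255 bp upstream). The other 4 of that kind, named after their values were seen, were rept (1570), the largest subunit of CAF-1 (2343), the H3.3 depositor XNP (2755) and dom (3285), the remodeller for H2Av. Genes without an optimal summit included Brd8 (pooled rank 4392, signal value 90.6), the middle subunit of CAF-1 (11967, 45.0), DMAP1 (12923, 42.8) and Eaf6 (27656, 26.2). Hira itself, also named after its value was seen, was at 16754.

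**Figure D5:**
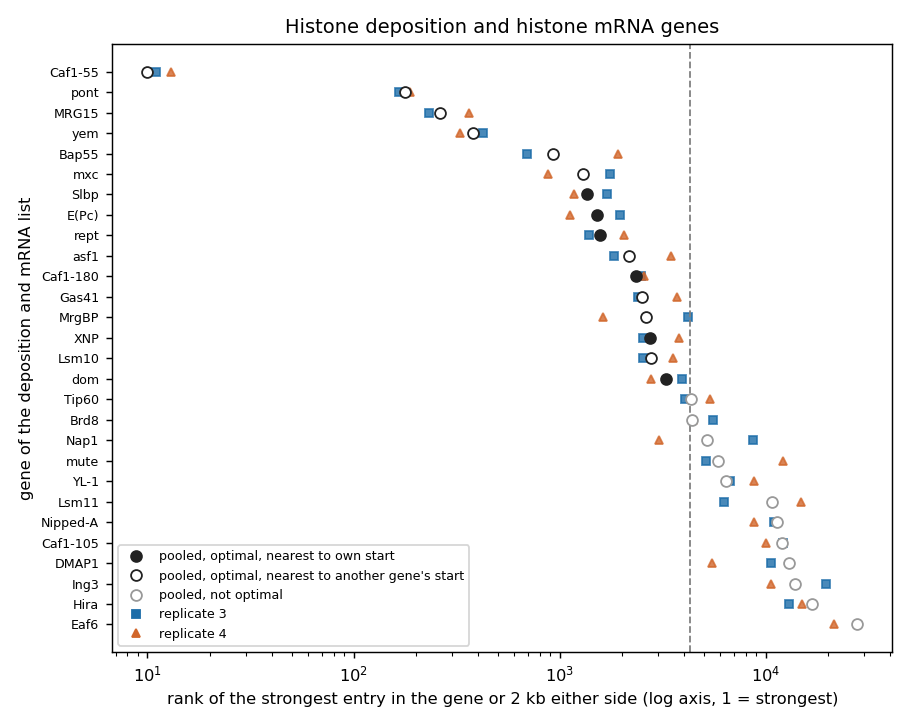
Rank of the strongest entry (x axis, log scale) in the gene or 2 kb either side for the 28 matched genes of the deposition and histone message list (y axis), in the pooled list (circles), replicate 3 (squares) and replicate 4 (triangles). Filled circles are optimal peaks nearest to the gene's own start (6 genes), open black circles are optimal peaks nearest to another gene's start (10 genes), open grey circles are not optimal (12 genes), and the dashed line marks rank 4293.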

How the data were processed

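Per the labels, chromatin of tagged Pho embryos was sheared by sonication to 200 to 800 bp. Per the texts deposited with the lists, the authors called peaks on each replicate and on the pooled reads against 1 control file and derived the optimal list from these 3 lists. The sources used here do not name the aligner, the caller, their versions or the threshold. The deposited signal value of each dm6 entry was used for ranking. The −log10 q-value that the authors deposited was given only beside ranks. The 3 optimal peaks at these genes share its highest value in the pooled list and in replicate 3, but not in replicate 4. Lists on dm3 were not used here. The widths of most entries (436 bp pooled, 440 bp in replicate 3, 420 bp in replicate 4) are set by the caller.

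A summit is the start of an entry plus its deposited offset. Coordinates are 1-based, and gene models are those of Ensembl release 115. Arms matched the RefSeq sequence in name, and no entry ran past its end. Summits were matched between lists within 100 bp, and motifs were searched within 50 bp, with 25 and 100 bp as alternatives. Counts were made with Python 3.11.15 and set beside the share of all protein-coding genes, with no test. On simulated data 120 of 120 genes with a planted summit were recovered among 500, and 0 others were counted. The summits were planted inside the windows of separate genes, so this checks the counting rule and not the peaks of these data. The symbol DLP has more than 1 match in the annotation and was left out. Named genes are the 4 members, cid, BigH1, the genes nearest to member summits or next in rank, and of the deposition list the 8 strongest and, in alphabetical order, 4 without an optimal summit. The members, lists and motifs were chosen with earlier results of these data known.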

Additional observations from a re-analysis of the deposited data

How the results depend on the processing

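The count of 3 genes with an optimal summit was the same with 500, 1000 or 5000 bp beyond the gene ends and with any base of the peak in the window, where 29.0%, 32.0%, 51.0% and 38.7% of protein-coding genes had one. It fell to 1, His2Av, among the strongest 50% of optimal peaks, which 23.6% of genes had. It was 2 when a summit counted only for the gene with the nearest start, since the His2Av peak then goes to ball, beside 21.3% of genes. It was 2 among the top entries of both replicates, a setting chosen after seeing the data, beside 32.8%. Without replicate 4 it was 4 and without replicate 3 it was 2. Replicate summits lay within 200 bp of the optimal ones at 3 genes and within 50 bp at 2. Within 100 bp, 94.4% of all optimal peaks had a summit in both replicates. The shares of all optimal peaks at 200 and 50 bp were not counted, so these counts cannot be judged against them. Measured from the outermost start, the summit lay 101 bp inside His3.3A and 1365 bp inside His3.3B, not 25 bp past and 292 bp before a start, because these genes have several starts. Motif matches at the 3 optimal summits numbered 1 within 50 bp, 0 within 25 bp and 3 within 100 bp, as wider windows hold more sequence. Of the 28 genes of the deposition list 12 had an optimal summit within 1 kb of a start, beside 26.1% of all genes. A top summit in replicate 3 alone was present at 17, and in replicate 4 alone at 17. All listed genes with an optimal summit were in both counts, and only the remaining gene differed. The shares of all genes were 37.8% and 37.1%. Ranking by the p-value column was not run, because it holds a placeholder in every entry, and starts from a RefSeq promoter table were not run. With 2 libraries, unknown depth and 4 genes, differences in rank near the end of the optimal list were not detectable beyond the spread between replicates.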
